A study of Mus musculus with 6 samples.

Results

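The genes described here are 8 genes of the T helper 17 (Th17) programme and of the interleukin-6 (IL-6) receptor in cultured mouse T cells: Rora, Il17a, Il17f, Il21, Il22, Il23r, Il6ra and Il6st. They were chosen by gene symbol, and all 8 were found among the 24493 symbols of the expression table. The table covers 6 mRNA sequencing libraries of mouse cells with the cell type label Treg (regulatory T cells), which had been induced in culture from naive CD4 T cells of the spleen. Of these, 3 carried the label WT (wild type) and 3 the genotype label Ifnar1-SA. Ifnar1 encodes one subunit of the receptor for type I interferons, and SA is known as a knock-in allele whose degradation signal carries alanine in place of a serine, so that the receptor resists degradation. Both groups share the tissue of origin, the culture and the extraction. The sources used here give no strain, age, sex, inducing cytokines or culture time. They also do not say whether replicates were separate mice or cultures, so the p-values cover the spread among these libraries. This spread may be technical in part, though WT 3 differed from the other libraries in a Y-linked gene (below).

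Th17 cells are CD4 T cells that make the cytokines IL-17A, IL-17F, IL-21 and IL-22 and express the nuclear receptor RORα (Rora). IL-6 binds its receptor chain (Il6ra), and the complex recruits gp130 (Il6st), the signalling chain shared by the IL-6 family, which activates JAK kinases and STAT3. In naive CD4 T cells given TGF-beta, IL-6 is known to turn the outcome from Treg towards Th17 cells, and IL-23, acting through Il23r, sustains the latter.

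Levels are in TPM, a measure that corrects for transcript length and adds up to 1e+06 per library, so they can be compared between genes, while the depth of the libraries is unknown. The library medians lay between 0.668 TPM (WT 1) and 1.21 TPM (WT 2), and 47.5% to 53.8% of symbols were under 1 TPM in a library. WT 3 had the Y-linked gene Eif2s3y listed at 0, against 10.9 to 23.2 TPM in the other libraries. By this gene alone, WT 3 looks female and the other libraries hold male cells. The WT libraries would then not all be repeats of the same cells, and sex would be mixed within WT. The part of sex in the values below was not tested. The Treg label was checked against 8 markers. Foxp3, the lineage-defining factor, was at 0.697, 0.295 and 0.276 TPM for WT against 0.746, 1.82 and 0.759 TPM for Ifnar1-SA. It was thus low, and under 1 TPM in every library except Ifnar1-SA 2. By contrast, Il2ra (359 to 444 TPM) and Ctla4 (482 to 698 TPM over WT, 762 to 876 TPM over Ifnar1-SA libraries), which activated T cells also express, were high. Foxp3 and Ctla4 were both higher in Ifnar1-SA without overlap. The same held for 1.97% of genes with a mean of 1 TPM or more and 1.43% of those under it and above 0. Ikzf2, Ikzf4, Lrrc32 and Tnfrsf18 were lower in mean log2 value and Il2ra and Itgae higher, all with overlap. Of the other markers, Tnfrsf18 was at 2371 TPM or more, Ikzf4 at 5.27 to 8.96 TPM, and Ikzf2, Itgae and Lrrc32 at most 2.73 TPM. The T cell genes Cd3e and Cd4 were at 90.2 TPM or more in every library. Of 9 markers of gamma-delta T cells, another source of IL-17, only Sox13 and Blk could be read, with a summed level of 0.113 to 0.338 TPM over the WT libraries and 0.0706 to 0.193 TPM over the Ifnar1-SA libraries.

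The 8 genes spanned levels from under 1 TPM to over 100 TPM. A gene was called expressed at 1 TPM or more in all 6 libraries, silent under 1 TPM in all 6, and low otherwise. Il21, Il6ra, Rora and Il6st were expressed, Il23r and Il17a were low, and Il22 and Il17f were silent. Of all symbols 43.3% were expressed, 12.0% low and 44.8% silent. Nearest to the limit of 1 TPM were Rora, with 1.03 TPM in WT 1, and Il23r, with 0.860 TPM in WT 1.

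The promoters of 5 genes are printed to set the silent or low IL-17 cytokines beside the expressed cytokine Il21 and the 2 receptor chains. Each is the stretch of 250 bases before the RefSeq start (GRCm38.p6), on the strand of the gene. Capitals mark every CG dinucleotide and every match, on either strand, to TATAAA (the TATA box core) or AGGTCA (the core bound by RORα).
Il17a, chr1:20730655-20730904, plus strand: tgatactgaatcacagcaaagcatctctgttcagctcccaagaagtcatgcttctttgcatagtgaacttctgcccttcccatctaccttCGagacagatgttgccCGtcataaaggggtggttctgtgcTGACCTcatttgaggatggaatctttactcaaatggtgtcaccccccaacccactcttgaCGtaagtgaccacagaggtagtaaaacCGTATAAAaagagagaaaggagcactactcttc
Il17f, chr1:20784271-20784520, minus strand: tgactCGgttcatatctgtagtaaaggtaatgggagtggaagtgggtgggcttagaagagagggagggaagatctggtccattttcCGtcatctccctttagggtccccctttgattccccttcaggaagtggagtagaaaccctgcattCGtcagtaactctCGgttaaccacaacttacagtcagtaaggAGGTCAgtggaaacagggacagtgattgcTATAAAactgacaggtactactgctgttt
Il21, chr3:37232637-37232886, minus strand: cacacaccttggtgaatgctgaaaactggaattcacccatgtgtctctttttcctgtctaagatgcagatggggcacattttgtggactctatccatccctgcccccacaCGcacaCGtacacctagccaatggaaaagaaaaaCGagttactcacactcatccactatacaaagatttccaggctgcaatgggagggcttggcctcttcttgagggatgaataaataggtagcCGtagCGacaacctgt
Il6ra, chr3:89913197-89913446, minus strand: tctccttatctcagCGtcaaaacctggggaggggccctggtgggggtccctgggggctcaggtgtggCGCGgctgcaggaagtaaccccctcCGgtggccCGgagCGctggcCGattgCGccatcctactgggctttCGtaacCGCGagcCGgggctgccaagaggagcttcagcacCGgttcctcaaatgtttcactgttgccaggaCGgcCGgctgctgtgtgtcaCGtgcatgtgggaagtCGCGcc
Il6st, chr13:112463820-112464069, plus strand: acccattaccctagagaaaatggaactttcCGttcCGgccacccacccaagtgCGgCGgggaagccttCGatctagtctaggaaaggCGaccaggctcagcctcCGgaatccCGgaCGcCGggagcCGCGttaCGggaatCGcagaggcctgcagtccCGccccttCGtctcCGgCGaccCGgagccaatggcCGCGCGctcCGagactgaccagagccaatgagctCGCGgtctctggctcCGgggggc

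Il17a and Il17f, which lie 42649 bases apart on chromosome 1, had the same make-up in this window. Each held 4 CG dinucleotides, 1 TATAAA and 1 AGGTCA, and the TATAAA began 31 bases before the start in Il17a and 29 bases before it in Il17f. Il21 held 5 CG dinucleotides and no match to either motif, and it was the most abundant of the 8. Il6ra held 18 CG dinucleotides, Il6st and Rora 26 each, and none of these 3 held TATAAA or AGGTCA. Il23r held 1 CG dinucleotide and 2 matches to AGGTCA, and Il22 held 3 CG dinucleotides and 1 TATAAA, 170 bases before its start. TTCNNNGAA, the STAT motif, was not in these windows for any of the 8 genes. Among 27025 RefSeq promoters the median was 6 CG dinucleotides, 13.0% held TATAAA, 13.8% AGGTCA and 7.18% TTCNNNGAA. The median was 16 CG dinucleotides for the 8222 expressed genes with a promoter sequence and 4 for the 7926 silent ones, so Il21 lay below the lower quartile (9) of expressed genes. The RefSeq starts of Il17f and Il22 lie within the gene spans that GENCODE gives. All of the Il17f window and part of the Il22 window are thus inside the gene as annotated there. The matches in all these windows are letters in a window and no evidence of binding.

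**Figure D1:**
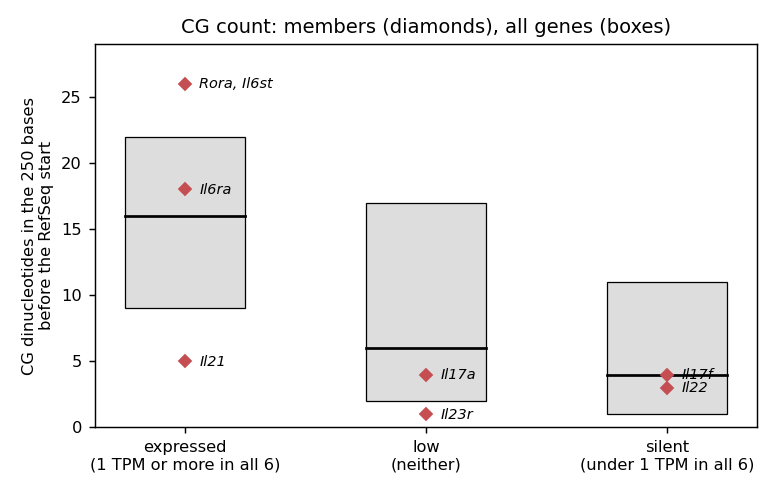
Number of CG dinucleotides in the 250 bases before the RefSeq start, for the 8 genes (diamonds) by their class of expression. Grey boxes span the quartiles over all genes of the class with a promoter sequence, and the black line is the median (16 for expressed and 4 for silent genes); Il21, at 5, is the expressed member below its box.

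Il21, a cytokine of Th17 and follicular helper cells that acts back on T cells, was the most abundant (GRCm38 chromosome 3, 37222759 to 37232636, minus strand, protein-coding). It was at 31.4, 112 and 105 TPM in libraries 1, 2 and 3 of WT, the order used throughout, against 96.2, 39.1 and 74.2 TPM for Ifnar1-SA. One library of each genotype, WT 1 and Ifnar1-SA 2, was low, and the genotypes overlapped. Means were 82.7 ± 44.6 TPM for WT and 69.8 ± 28.8 TPM for Ifnar1-SA (SD, n = 3 each). The log2 difference, Ifnar1-SA minus WT throughout, was −0.13 ± 0.54 (SE, limma on log2(TPM + 1), two-sided, adjusted p = 0.9997), and its 95% interval reached 1.29 to either side of it. The difference was −0.72 without WT 1 and turned positive without WT 2 (0.19), WT 3 (0.14) or Ifnar1-SA 2 (0.23). An antisense gene, Gm12534, overlaps Il21 in the annotation and was not among the symbols of the expression table. The receptor chain Il21r was at 134 to 182 TPM in the 6 libraries, also with overlap.

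Il17a, the signature Th17 cytokine that recruits neutrophils (chromosome 1, 20730905 to 20734496, plus strand), was at 0.381, 0.234 and 0.391 TPM for WT against 0.551, 0.619 and 1.13 TPM for Ifnar1-SA. The genotypes did not overlap, with all 3 Ifnar1-SA libraries above all 3 WT libraries. Its mean of 0.551 TPM over the 6 libraries left it under the expression filter of the main test. The exact two-sided permutation p was 0.1, the smallest that 3 against 3 libraries allow. With no filter the log2 difference was 0.39 ± 0.15 (SE, limma, unadjusted p = 0.0315, adjusted p = 0.9999 over 23897 genes). Of the 11756 genes above 0 and under the filter, 1.43% were higher without overlap, 4.48% lower, and 5.91% in either direction did not overlap. In each library Il17a lay between the percentiles 23.6 and 54.8 of all symbols, so the difference lies among genes near the floor, and how many reads it rests on is unknown. The summed levels of 6 neutrophil markers (9.68 to 13.4 TPM over WT, 18.2 to 25.04 TPM over Ifnar1-SA libraries) also did not overlap. Most of that sum in Ifnar1-SA was Ly6g (6.46 to 6.55 TPM over WT, 14.2 to 21.4 TPM over Ifnar1-SA libraries), the only one of these markers without overlap. S100a8, a defining neutrophil gene, was listed at 0 in all 3 Ifnar1-SA libraries and in WT 1, and was at most 0.504 TPM in WT. S100a9 (0.615 to 2.87 TPM) and Csf3r (1.67 to 3.30 TPM) were read in all 6 libraries, with overlap, and Mpo and Elane were at most 0.250 TPM. Mean levels of S100a8, S100a9, Csf3r and Mpo were lower in Ifnar1-SA, and that of Elane was higher. The summed level of the 5 CD4 T cell markers read did not overlap either (1415 to 1465 TPM over WT, 1556 to 1734 TPM over Ifnar1-SA libraries). Of these markers, Cd3d and Cd3g were higher without overlap, while Cd3e, Cd4 and Cd28 overlapped. The Treg markers Foxp3 and Ctla4 also did not overlap (levels above, and for Ctla4 a log2 difference of 0.50 ± 0.18 SE, limma unadjusted p = 0.0261, adjusted p = 0.9997). The summed level of the 8 Treg markers overlapped (3506 to 4181 TPM over WT, 3593 to 4438 TPM over Ifnar1-SA libraries). The part of these levels in the value of Il17a was not tested.

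Il17f, which forms dimers with IL-17A (chromosome 1, 20777146 to 20790617, minus strand), read 0.234, 0.439 and 0.148 TPM for WT against 0.261, 0.289 and 0.287 TPM for Ifnar1-SA. The Ifnar1-SA values fell inside the WT range (exact permutation p = 0.9). Il22, which acts on epithelia (chromosome 10, 118204942 to 118210047, plus strand), was at 0.552, 0.599 and 0.559 TPM for WT against 0.365, 0.346 and 0.737 TPM for Ifnar1-SA (exact permutation p = 0.4). Ifnar1-SA 1 and 2 lay below all WT libraries and Ifnar1-SA 3 above them. The table also lists the near-identical copy Iltifb, at 0.0261 to 0.867 TPM, and how reads were split between the copies is uncertain. The percentiles in a library were 24.3 to 40.2 for Il17f and 38.1 to 50.9 for Il22.

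**Figure D2:**
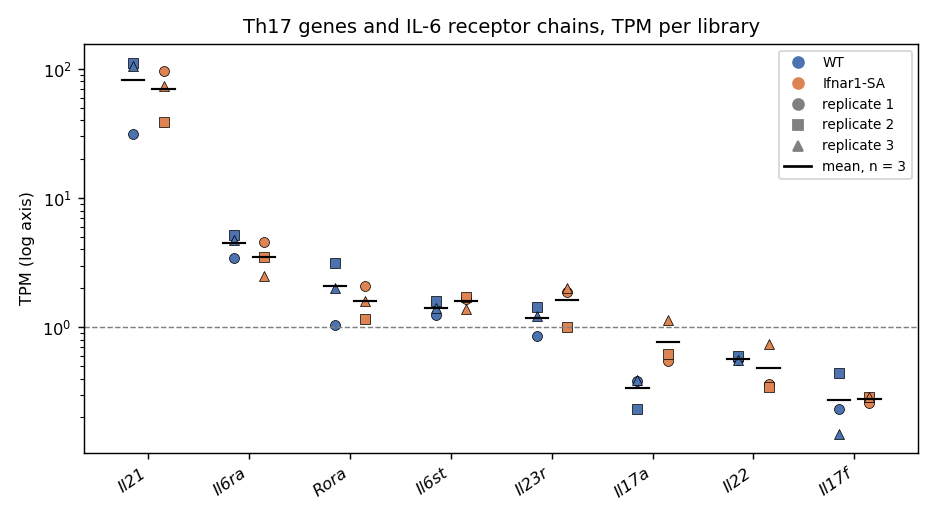
TPM of the 8 genes in each library on a log axis, ordered by mean level; blue points are WT, orange points Ifnar1-SA, the marker shape gives the replicate, black bars are means of 3 libraries and the dashed line marks 1 TPM. Il21 stands above the rest at 31.4 to 112 TPM, and Il17a is the 1 gene whose genotypes do not overlap.

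Rora, a nuclear receptor that promotes Th17 cells (chromosome 9, 68653786 to 69388246, plus strand), was at 1.03, 3.16 and 2.01 TPM for WT against 2.08, 1.15 and 1.59 TPM for Ifnar1-SA. WT held both the lowest and the highest value, and the Ifnar1-SA libraries lay between them. The log2 difference was −0.19 ± 0.29 (SE, limma adjusted p = 0.9997), and it was 0.059 without WT 2 and −0.46 without WT 1. Leaving out Ifnar1-SA 1 made it −0.32, and leaving out Ifnar1-SA 2 made it −0.060. The highest library of Rora was also the library with the highest median TPM of all genes (WT 2), and the lowest that with the lowest median (WT 1); the part of this background level in the result was not tested. An antisense gene, Gm15511, overlaps Rora and was listed at 0.109 to 0.635 TPM, and without stated strand its reads cannot be told apart from those of Rora.

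Il23r, which confers the response to IL-23 (chromosome 6, 67422932 to 67491855, minus strand), read 0.860, 1.43 and 1.21 TPM for WT against 1.88, 1.005 and 2.02 TPM for Ifnar1-SA. Of the Ifnar1-SA libraries, 1 and 3 lay above all WT libraries and 2 lay within them. The log2 difference was 0.27 ± 0.23 (SE, limma adjusted p = 0.9997), and it was 0.16 without WT 1 or Ifnar1-SA 3 and 0.45 without Ifnar1-SA 2. Il12rb1, the chain with which it pairs and which the IL-12 receptor shares, was far more abundant, at 62.7 to 119 TPM, as was the IL-12 receptor chain Il12rb2, at 79.6 to 127 TPM. Il23a, the IL-23 subunit, was at 0.817 to 2.41 TPM.

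Il6ra, the chain that binds IL-6 (chromosome 3, 89864059 to 89913196, minus strand), read 3.41, 5.18 and 4.77 TPM for WT against 4.56, 3.52 and 2.49 TPM for Ifnar1-SA. The genotypes overlapped, with the highest 2 values in WT and the lowest in Ifnar1-SA 3. The log2 difference was −0.28 ± 0.23 (SE, limma adjusted p = 0.9997). The overlapping antisense gene Gm42809 was not among the symbols of the expression table. The difference was −0.11 without Ifnar1-SA 3, −0.18 without WT 2, −0.43 without WT 1 and −0.44 without Ifnar1-SA 1.

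Il6st, which encodes gp130 (chromosome 13, 112464070 to 112510086, plus strand), was at 1.25, 1.60 and 1.40 TPM for WT against 1.65, 1.72 and 1.38 TPM for Ifnar1-SA. It was the steadiest of the 8 genes, with a highest library 1.38 times the lowest, against 3.58 times for Il21 and 4.82 times for Il17a. The log2 difference was 0.098 ± 0.17 (SE, limma adjusted p = 0.9997), and the 95% interval extended 0.40 to either side. It was 0.047 without WT 1, 0.059 without Ifnar1-SA 2, 0.15 without WT 2 and 0.16 without Ifnar1-SA 3.

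Il6ra exceeded Il6st in every library. The ratio of their TPM was 2.74, 3.23 and 3.41 in WT and 2.76, 2.05 and 1.80 in Ifnar1-SA. Only Ifnar1-SA 1 fell inside the WT range. The log2 ratio of Il6st to Il6ra, with 1 TPM added to each, was −1.16 ± 0.163 in WT and −0.78 ± 0.263 in Ifnar1-SA (SD, n = 3 each, exact two-sided permutation p = 0.2). In bulk samples fewer cells with a transcript and less transcript per cell cannot be told apart, here and for every gene above.

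In the order of mean levels Il21 stood alone, since its lowest library exceeded the highest of Il6ra. Each of the other 7 genes overlapped its neighbour in the order Il6ra, Rora, Il6st, Il23r, Il17a, Il22 and Il17f.

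Of the 8 genes, 5 passed the filter (a mean of 1 TPM or more) and 0 passed the adjusted threshold of 0.05, against 0.0577% of the 12141 genes tested. None of the 5 had an unadjusted p under 0.05 in limma, the only test across all genes that was run, against 3.12% of genes tested, and none had libraries that did not overlap, against 5.77% (1.97% higher and 3.8% lower). Their median log2 difference was −0.13, beside −0.056 over all genes tested.

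**Figure D3:**
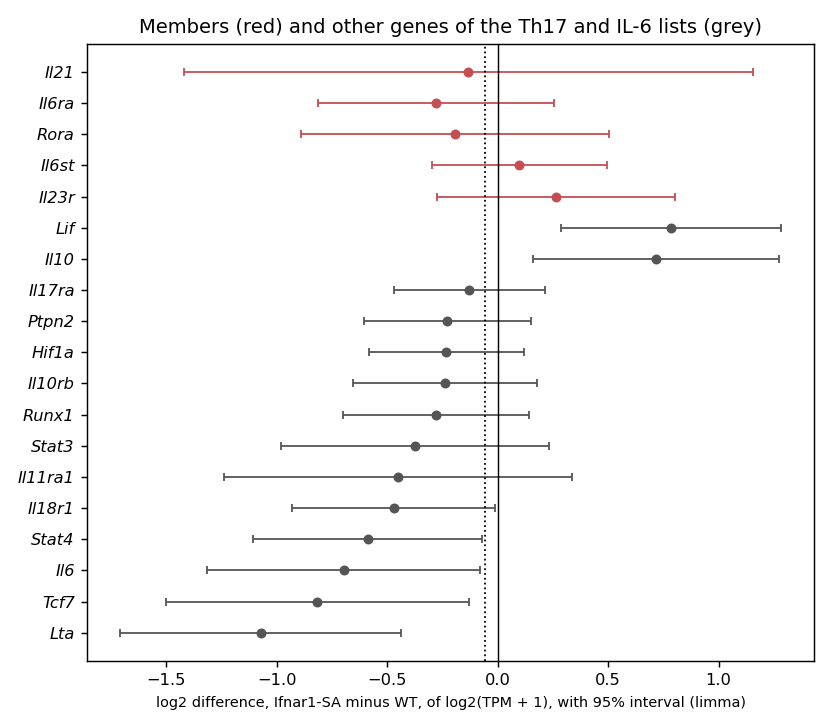
Log2 difference between the genotypes (Ifnar1-SA minus WT, of log2(TPM + 1)) with its 95% interval from limma, for the 5 genes that passed the filter (red) and further genes of the Th17 and IL-6 lists (grey). The dotted line is the median of all genes tested (−0.056), and the 5 red intervals all include 0.

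Several of these genes differed more between libraries of 1 genotype than between the genotype means. WT 1 was the lowest library for Il21, Rora, Il23r and Il6st, and Ifnar1-SA 2 was the second lowest for Il21, Rora and Il23r. Over the 6 libraries Pearson's r of log2(TPM + 1) was 0.91 between Il21 and Rora, 0.39 between Il6ra and Il6st and −0.84 between Il6ra and Il17a. These values describe 6 points that share libraries and background level. Among 6531 other genes whose mean reached 5 TPM, those most like Il21 were Cysltr2 (r = 0.99), Traf4 (0.99) and H2-Oa (0.99). For Rora they were Tgoln1, Sh3glb1 and Tmed4 (r of 0.99 to 0.997), for Il6ra Bbs5, Eif5b and Pdcd7 (0.96 to 0.97) and for Il6st Mapk3, Immp1l and Ltb4r1 (0.95 to 0.99). An r of 0.95 with Rora was exceeded by 66 genes. The 9 naive T cell markers, some of which accompany Il6ra in naive cells, had a summed level of 261 to 612 TPM over the WT libraries and 185 to 342 TPM over the Ifnar1-SA libraries, and all 8 tested were lower in mean log2 value, as were 7642 of the 12141 genes tested. Of these 8 markers 3 had an unadjusted p under 0.05 in limma and 0 passed the adjusted threshold. Their part in the values of Il21 and Il6ra was not tested.

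**Figure D4:**
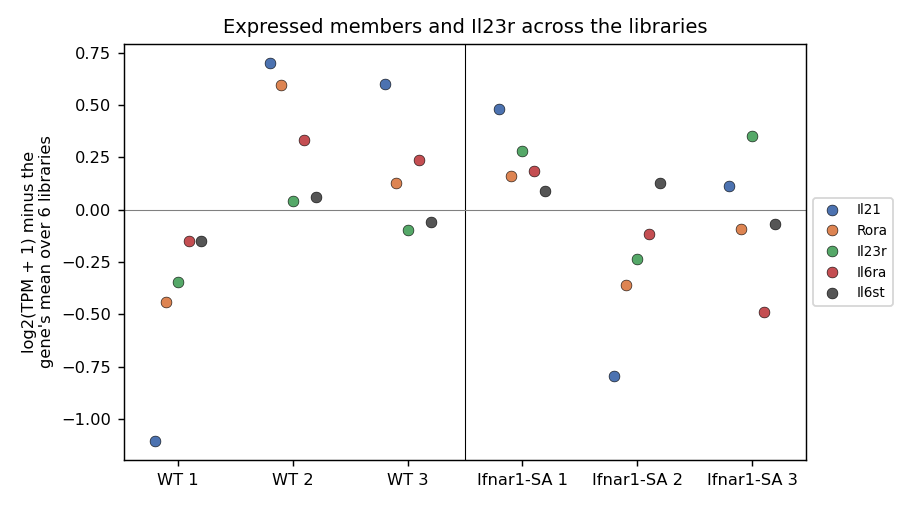
Deviation of log2(TPM + 1) from the gene's own mean in each of the 6 libraries, for the 4 expressed genes and Il23r; each point is 1 gene in 1 library. Points of WT 1 all lie below 0, and in Ifnar1-SA 2 all but Il6st do, while Il6st stays close to 0 throughout.

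Around these genes, 10 lists of the Th17 and IL-6 pathways held 99 symbols, of which 67 passed the filter and 25 were silent. In limma 0 passed the adjusted threshold, and 7 had an unadjusted p under 0.05, of which 2 were higher and 5 lower in Ifnar1-SA. The background for such a p was 1.44% of genes tested in the higher and 1.68% in the lower direction. The lists were chosen with earlier results of these data known, so no conclusion is drawn from the count beside this background. The count of 7 was 2 without Ifnar1-SA 3, 4 without WT 2, 3 without Ifnar1-SA 2, 3 with median-of-ratios scaling and 11 with no filter. The median log2 difference of the 67 genes was −0.10.

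Among the ligands of the gp130 family, Lif, which signals through Lifr and gp130, was at 32.8, 40.1 and 25.5 TPM for WT against 67.1, 50.9 and 52.6 TPM for Ifnar1-SA. All Ifnar1-SA libraries lay above all WT libraries, and the ratio of means was 1.73 (log2 difference 0.79 ± 0.21 SE, limma unadjusted p = 0.00737, adjusted p = 0.9997). Il6 itself was low, at 2.83, 1.29 and 1.15 TPM for WT against 0.679, 0.715 and 0.543 TPM for Ifnar1-SA. Every Ifnar1-SA library lay below every WT library (log2 difference −0.70 ± 0.26 SE, limma unadjusted p = 0.0320, adjusted p = 0.9997), and without WT 1, the highest library, Il6 no longer passed the filter. Of the 6 ligands tested, 1 was higher and 1 lower at that unadjusted level. Osm (19.98 to 34.1 TPM) and Ebi3, a subunit of IL-27 (103 to 182 TPM), overlapped between the genotypes.

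Of the 8 receptor chains of the family, 5 passed the filter, 0 had an unadjusted p under 0.05 in limma, and 3 were silent. Il27ra, the IL-27 receptor chain, was the most abundant at 15.98 to 29.8 TPM. Lifr (2.40 to 4.83 TPM) and Il11ra1 (2.04 to 6.94 TPM) overlapped Il6ra. Il6st, the partner that all of these require, was the lowest of the 5, and its highest library (1.72 TPM) lay below every library of the other 4. Osmr and Il31ra were at most 0.5196 TPM, and Cntfr was at most 0.0140 TPM. Il11ra1 had a log2 difference of −0.45 ± 0.33 (SE, limma adjusted p = 0.9997), which was −0.099 without WT 2 and −0.69 without WT 1.

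**Figure D5:**
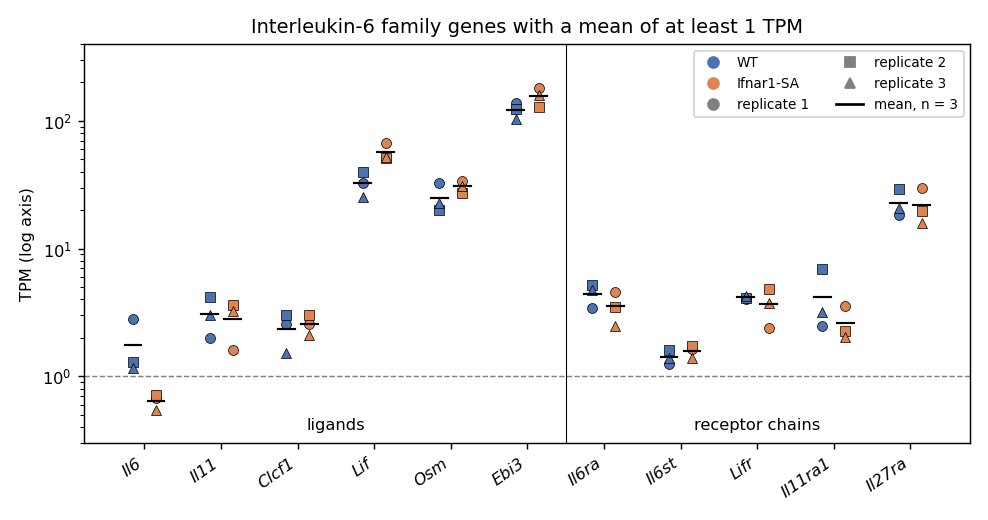
TPM on a log axis for the 6 ligands (left) and 5 receptor chains (right) of the IL-6 family whose mean reached 1 TPM; blue is WT, orange Ifnar1-SA, marker shapes are replicates, bars are means of 3 libraries. Lif (higher) and Il6 (lower) are the genes whose genotypes do not overlap.

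Downstream of gp130, 11 of 12 signalling and shedding genes passed the filter and 0 had an unadjusted p under 0.05 in limma. Stat3, the main transducer of IL-6, was abundant at 117, 219 and 161 TPM for WT against 149, 113 and 112 TPM for Ifnar1-SA, with overlap (log2 difference −0.37 ± 0.26 SE). That difference was −0.15 without WT 2 and −0.60 without WT 1. Ptpn2, a phosphatase that restrains JAK and STAT signalling, was at 196, 203 and 166 TPM for WT against 167, 173 and 142 TPM for Ifnar1-SA, with overlap (log2 difference −0.23 ± 0.16 SE, limma adjusted p = 0.9997), and the difference was −0.14 without Ifnar1-SA 3 and −0.12 with median-of-ratios scaling. Socs3, the feedback inhibitor of gp130, was at 34.9, 39.5 and 36.9 TPM for WT against 33.2, 34.2 and 29.8 TPM for Ifnar1-SA, a log2 difference of −0.19 without overlap (limma unadjusted p = 0.219).

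Among the 15 Th17 transcription factors, 14 passed the filter and 0 had an unadjusted p under 0.05 in limma. The smallest p belonged to Runx1 (5.46 to 9.01 TPM) and Hif1a, a factor of the hypoxia response, at 110.0, 137 and 116 TPM for WT against 106, 99.0 and 102 TPM for Ifnar1-SA. Batf, an AP-1 factor needed for Th17 cells, was at 813 to 845 TPM over WT and 858 to 961 TPM over Ifnar1-SA libraries, without overlap (log2 difference 0.15, limma adjusted p = 0.9997). Ahr, the aryl hydrocarbon receptor that promotes Il22 in Th17 cells, was under the filter, at 1.496, 1.47 and 1.01 TPM for WT against 0.762, 0.811 and 0.418 TPM for Ifnar1-SA (exact permutation p = 0.1, the smallest possible).

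Of the 14 Th17 cytokines and effectors 7 passed the filter, and 6 were silent. Lta, lymphotoxin alpha, was at 164, 166 and 244 TPM for WT against 109, 63.0 and 101 TPM for Ifnar1-SA (log2 difference −1.07 ± 0.27 SE, limma unadjusted p = 0.00521, adjusted p = 0.945). Il10, an anti-inflammatory cytokine that some Th17 cells make, was at 222, 135 and 212 TPM for WT against 256, 319.6 and 344 TPM for Ifnar1-SA (log2 difference 0.72, limma unadjusted p = 0.0189, adjusted p = 0.9997). Il24, a cytokine of the IL-10 family, was at 1114 to 2179 TPM in the 6 libraries, with overlap. Il17b, Il17c, Il17d and Il25, the other IL-17 family genes, were at most 0.316 TPM. Il17c, near the floor, was at 0, 0 and 0.0365 TPM for WT against 0.155, 0.0714 and 0.206 TPM for Ifnar1-SA. It was thus higher without overlap (exact permutation p = 0.1), as were 1.43% of genes under the filter and above 0. Il17b, Il17d and Il25 overlapped.

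For the 15 surface receptors of Th17 cells, 10 passed the filter. Il18r1, an IL-18 receptor chain, was at 2.42, 2.08 and 1.40 TPM for WT against 1.10, 1.04 and 1.21 TPM for Ifnar1-SA (log2 difference −0.47, limma unadjusted p = 0.0465, adjusted p = 0.9997). Ccr6, the chemokine receptor that marks Th17 cells, and Il1r1 were at most 0.819 and 0.372 TPM. Of the 9 receptor chains for IL-17 and IL-22 and their adaptor, 3 passed the filter and 0 had an unadjusted p under 0.05 in limma. Il10rb, a chain of the receptors for IL-22 and IL-10, was at 19.6, 25.6 and 21.1 TPM for WT against 21.8, 16.5 and 17.4 TPM for Ifnar1-SA, with overlap (log2 difference −0.24 ± 0.18 SE, limma adjusted p = 0.9997; −0.13 without WT 2 and −0.14 with median-of-ratios scaling). Il17ra was at 7.24 to 9.84 TPM, while Il17rc, with which it forms the receptor for IL-17A, was at most 0.206 TPM.

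Among 12 tested inhibitors of the Th17 programme, Tcf7 was at 10.2, 17.0 and 16.00 TPM for WT against 10.8, 5.19 and 7.52 TPM for Ifnar1-SA (log2 difference −0.82, limma unadjusted p = 0.0261, adjusted p = 0.9997). Stat4, the transducer of IL-12 and IL-23, was at 14.3, 12.8 and 13.2 TPM for WT against 11.4, 6.09 and 8.96 TPM for Ifnar1-SA (log2 difference −0.59, limma unadjusted p = 0.0316, adjusted p = 0.9997; −0.37 without Ifnar1-SA 2). It was 1 of 7 tested genes of the IL-12 and IL-23 system and the only one of them with an unadjusted p under 0.05.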

How the data were processed

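Gene-level TPM values in 1 table, deposited by the authors, were used for 6 libraries (3 WT, 3 Ifnar1-SA), matched to samples by title. Salmon and the builds mm10 and GRCm38 are named per the submitters' processing notes; the sources used here give no version, annotation or filter. Depth is unknown, so no counting interval was computed. Values were tested as log2(TPM + 1), which understates changes of low genes, with limma 3.58.1 (R 4.3.3, intensity trend, two-sided, Benjamini-Hochberg over 12141 genes whose mean reached 1 TPM, threshold 0.05). Single values were tested by exact two-sided permutation (smallest p 0.1). The fit was tested on simulated data. The 8 genes and the 10 pathway lists were chosen with earlier results of these data known; 2 genes of these lists are not reported here and are left out of the list counts. Named from each list were genes with an unadjusted p under 0.05 or, with none, the 2 of smallest p, and the 3 genes of highest r per expressed gene (mean of at least 5 TPM, no predicted, small RNA or ribosomal genes). Any further gene in the text was picked with its values in view. Positions are from GENCODE M21 (GRCm38), promoters from RefSeq (GRCm38.p6), with all 8 genes matched in both. Python 3.11.15, pandas 2.3.3, numpy 2.4.6 and matplotlib 3.10.9 were used. Alternatives were other pseudocounts (0.1, 0.5), filters (none, mean of 5 TPM), scalings (median-of-ratios, quantile), no intensity trend, a replicate block and leaving out libraries.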

Additional observations from a re-analysis of the deposited data

How the results depend on the processing

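None of Il21, Il6ra, Rora, Il6st and Il23r passed the adjusted threshold in any of the settings in which it was tested (lowest adjusted p 0.728). Il6ra, Il6st and Il23r kept their direction in all 15 alternatives, from −0.44 to −0.11, 0.0083 to 0.19 and 0.16 to 0.45 on the log2 scale; with a mean of at least 5 TPM only Il21 remained testable. Leaving out 1 library moved Il21 between −0.72 and 0.23 (positive at 0.19 without WT 2, 0.14 without WT 3 and 0.23 without Ifnar1-SA 2) and Rora between −0.46 and 0.059 (positive without WT 2). The cause was not tested. With median-of-ratios scaling Il21 was −0.027 and Rora −0.11, and with a pseudocount of 0.1 the low genes Il6 and Il18r1 were −1.22 and −0.73. The log2 ratio of Il6st to Il6ra differed by 0.26 to 0.52 between the genotypes in 10 alternatives, against 0.38 with all libraries.

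Genes past the adjusted threshold numbered 7 in the main setting, 15 and 14 with pseudocounts of 0.1 and 0.5, 1 with a mean of at least 5 TPM, and 15 to 28 without 1 library. There were 0 without WT 2 and Ifnar1-SA 1 together (366 at an unadjusted p under 0.05) and 44 without WT 1 and Ifnar1-SA 2 together, a setting chosen after seeing the data. At an unadjusted p under 0.05 there were 379 in the main setting, 658 with no filter (more genes tested), 224 with a mean of at least 5 TPM (fewer genes tested), 207 to 854 without 1 library and 570 without WT 1 and Ifnar1-SA 2. For the pathway lists the count of 7 became 11 with no filter, 3 with median-of-ratios scaling and 2 to 8 without 1 library. The genotypes share replicate numbers, but same-numbered libraries did not deviate together (r = −0.11, −0.11 and 0.15 across genes). With the number as a replicate block 0 genes passed by limma (399 at an unadjusted p under 0.05), and 5 pathway genes had an unadjusted p under 0.05. Depth is unknown, so values near 1 TPM, those of Il17a, Il17f, Il22 and Il23r among them, may rest on few reads.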
